A study of Mus musculus with 6 samples.

Results

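The genes described here are 41 mouse genes that the array files name in the pattern of proteasome subunits (Psma to Psmf), without the interferon-induced subunits Psmb8, Psmb9 and Psmb10. They came from 27666 genes on the array, were carried by 63 probes, and each was read from its brightest probe. Of the 41, 15 are Psma and Psmb genes of the core particle and 26 are Psmc, Psmd, Psme and Psmf genes, called regulatory below. All 41 were well above background on all 6 arrays, and none was saturated. The rule used names and brightness and no response to an siRNA, but it was chosen with earlier results of these data known.

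The proteasome degrades proteins that carry ubiquitin chains. Its core particle is a barrel of stacked rings in which alpha subunits form the gate and beta subunits hold the protease sites. A regulatory particle sits on the gate: its base holds a ring of ATPases that unfold the substrate, and its lid removes the ubiquitin. Other caps (activators) and an inhibitor bind the same core. The subunits are made in fixed ratios, and in mammals their genes are raised together by the transcription factor Nfe2l1 (Nrf1) when proteasome activity is short. Embryonic stem cells depend on the proteasome for turnover of pluripotency factors, and human embryonic stem cells are known for high proteasome activity.

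J1 is a mouse embryonic stem cell line. Its total RNA, taken 96 hours after siRNA transfection, was hybridised to single-colour Cy3 Agilent arrays, 2 for each of 3 siRNAs: NT, which is non-targeting, Thoc2 and Thoc5. No genetic change is labelled in any group, all 3 groups were transfected in M10 medium, and the labels do not say whether the 2 replicates of a group were separate cultures, so p-values measure the spread between these arrays. Thoc2 and Thoc5 encode subunits of THO, which binds new mRNA and takes part in its export, and the series title names the export of mRNA of pluripotency genes. Total RNA gives the level of an mRNA in whole cells and not its export, and fewer cells of a type cannot be told apart from less RNA per cell.

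Levels are on a log2 scale on which 0 is the 75th percentile of processed signal on that array, and errors are the SE of a limma fit to all 6 arrays. With the siRNA against it, Thoc2 mRNA was 55.0% of NT and Thoc5 mRNA 41.4%; the adjusted p (limma, Benjamini-Hochberg) was 0.304 and 0.130. Signal at that percentile ranged from 306 to 905, lowest on Thoc5 replicate 1, and Thoc2 replicate 1 had 880 outlier spots against 63 to 155 on the others. All 8 embryonic stem cell markers found were well above background on all 6 arrays. Their summed linear level was 407 and 414 with NT siRNA and 277 to 349 with the THO siRNAs. Zfp42 and Klf4 make up most of that sum, and some markers overlapped NT, such as Nanog with Thoc2 siRNA and Tdgf1 with both. Of 9 fibroblast markers 5 were detected on all arrays, with Col6a1 and Lox on none. Summed over the 9, the level was 2.69 and 1.97 with NT, 0.998 and 1.72 with Thoc2, and 1.05 and 1.20 with Thoc5 siRNA. Thy1 and Col1a1 were below NT on all 4 THO siRNA arrays. Col1a2 and S100a4 overlapped NT with both siRNAs, and Fbln2 with Thoc2 siRNA. The summed level of 5 trophectoderm markers was 11.2 and 12.2 with NT, 8.31 and 8.93 with Thoc2, and 17.5 and 19.9 with Thoc5 siRNA; Krt8 and Krt18 make up nearly all of that sum. Gata3 and Cdx2, far dimmer, went the other way with Thoc2 siRNA: Gata3 read -4.89 and -5.11 with NT and -2.61 and -2.63 with Thoc2 siRNA, and Cdx2 -4.84 and -4.26 with NT and -3.49 and -3.67 with Thoc2 siRNA. Elf5 was detected on 1 array. All 4 extraembryonic endoderm markers were detected on all arrays. Their summed level was 3.47 and 0.497 with NT, 2.04 and 2.09 with Thoc2, and 6.12 and 1.72 with Thoc5 siRNA. The NT arrays lay far apart, and NT replicate 1 was above Thoc5 replicate 2. The part of these markers in the values below was not tested.

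In most settings the proteasome genes lay closer to NT than genes at large. With Thoc2 siRNA 36 of the 41 lay within 0.3 of NT on the log2 scale (87.8%), where 46.3% of the 19336 genes kept did so. With Thoc5 siRNA 34 of 41 did (82.9%), against 42.3% of all genes. This depended on the scaling and background: by normexp 16 of 41 lay within 0.3 with Thoc2 siRNA (39.0%, against 30.0% of all genes) and 14 with Thoc5 siRNA (34.1%, against 29.9%), and by median scaling 20 of 41 did with Thoc2 siRNA (48.8%, against 37.6%). The arrays of a group also lay closer together for these genes: their median SD between replicates was 0.080 with NT, 0.116 with Thoc2 and 0.094 with Thoc5 siRNA, against 0.211, 0.203 and 0.157 over all genes. Among genes well above background on all arrays, as the 41 are, 53.6% lay within 0.3 with Thoc2 siRNA and 48.1% with Thoc5 siRNA. Strength of signal was not otherwise matched between the 41 and all genes.

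No gene on the array passed an adjusted p of 0.05 in either comparison with NT (limma, 0% of genes), so none of the 41 did. At an unadjusted p under 0.05, 2 of the 41 were lower and 0 higher with Thoc2 siRNA, where 6.48% of all genes were lower and 8.03% higher (14.5% either way). With Thoc5 siRNA 3 were lower and 1 higher, where 12.1% of all genes were lower and 7.41% higher (19.5% either way). The 2 lower with Thoc2 siRNA were Psma8 and Psmd8, the 3 lower with Thoc5 siRNA were Psma8, Psmd8 and Psma2, and the gene higher with Thoc5 siRNA was Psmf1. Both comparisons use the same NT arrays, so the repeat of Psma8 and Psmd8 is not independent. For the mean of both siRNAs against NT, 3 were lower (Psma8, Psmd8 and Psma2; 10.4% of all genes) and 1 was higher (Psmf1; 8.81%), and 19.2% of all genes passed either way. Of 20 fitted settings, the main fit among them, the unadjusted call held in 19 for Psma8 and 19 for Psmd8 with Thoc2 siRNA. With Thoc5 siRNA it held in 20 for Psma8, 17 for Psmd8, 18 for Psmf1 and 11 for Psma2.

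**Figure D1:**
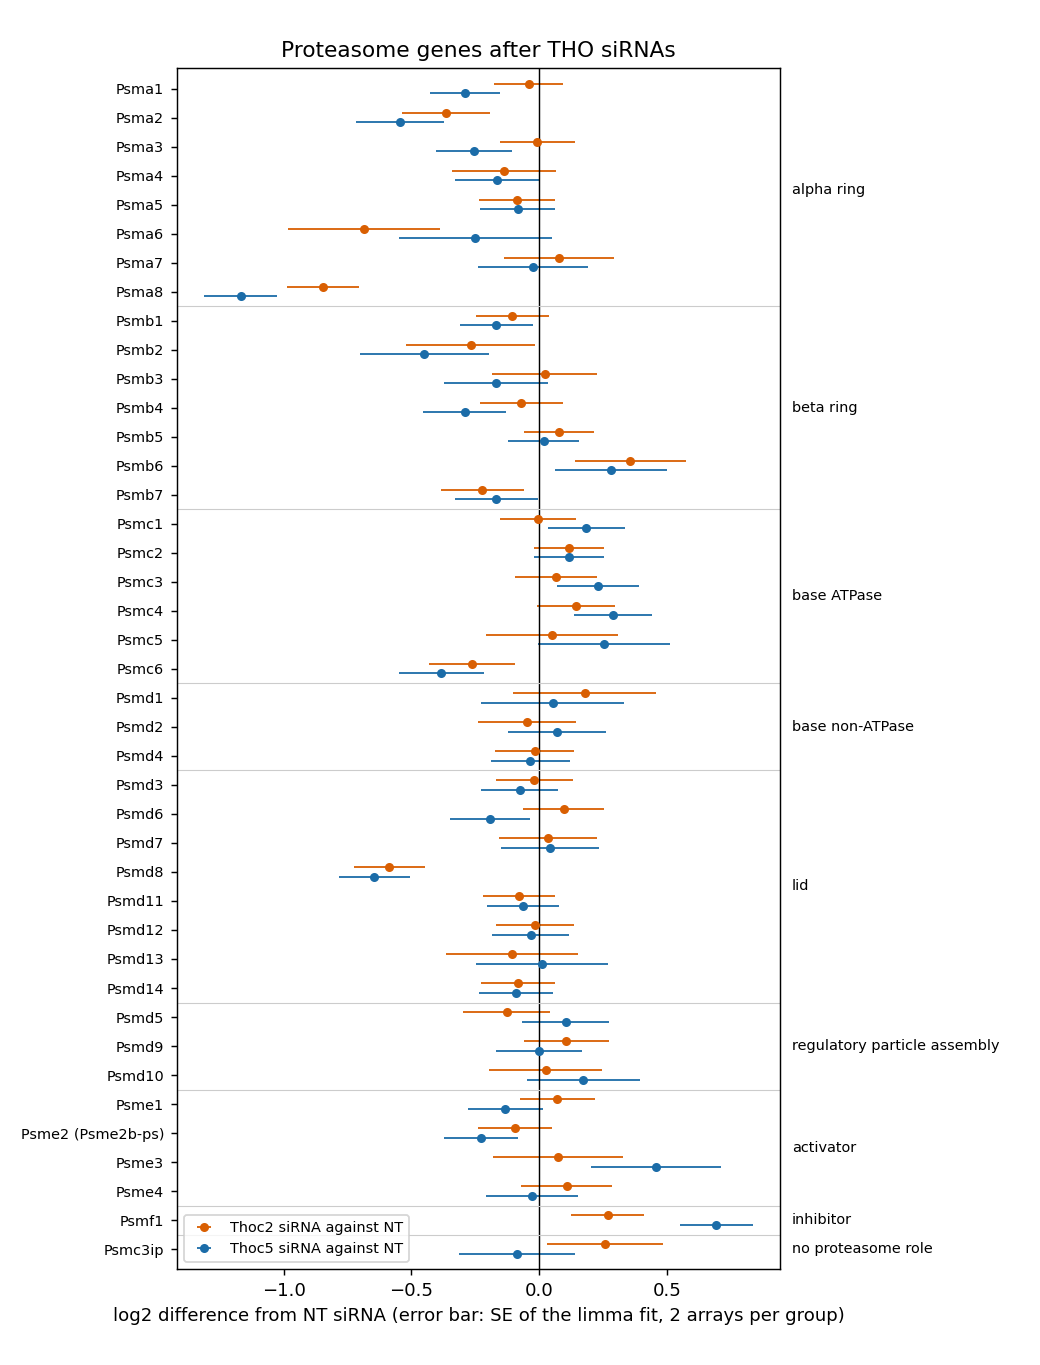
Log2 difference from NT siRNA of each of the 41 genes, grouped by role, with Thoc2 siRNA in orange and Thoc5 siRNA in blue (points are fitted differences, bars the SE, 2 arrays per group). Most points lie within 0.3 of zero, and Psma8, Psmd8 and, with Thoc5 siRNA, Psmf1 stand farthest out relative to their SE.

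Probe sequences are shown for some of the members with the clearest or the least even values, and not for Psma8 or Psmc5. Each value is the signal of the probe's stretch of mRNA and not of the whole gene. The sequences are given as the array files list them, with build mm7 coordinates and no capitals. The Psmd8 probe (chr7:26115386-26116337, minus strand) and the Psmc6 probe (chr14:40665046-40666872, plus strand) are 60 bases long but span 952 and 1827 bases of genome, so each crosses a gap in the genome, as a probe over a splice junction does. The Psma6 probe (chr12:53336175-53336234, plus strand) and the Psmf1 probe (chr2:151470474-151470533, minus strand) each lie in 1 unbroken stretch of 60 bases.
Psmd8: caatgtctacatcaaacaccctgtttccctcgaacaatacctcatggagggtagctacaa
Psmc6: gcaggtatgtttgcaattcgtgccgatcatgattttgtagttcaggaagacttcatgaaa
Psma6: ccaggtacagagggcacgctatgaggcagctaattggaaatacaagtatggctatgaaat
Psmf1: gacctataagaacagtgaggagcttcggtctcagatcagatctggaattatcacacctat

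In the alpha ring, which gates the core, 7 of 8 genes lay below NT with Thoc2 siRNA and 8 of 8 with Thoc5 siRNA, with a median log2 difference of -0.11 and -0.25. Over all genes the medians were 0.062 and -0.085. The count depended on the scaling: with quantile normalization 4 of 8 lay below NT with Thoc2 siRNA and 6 of 8 with Thoc5 siRNA, and the ring's median was -0.057 and -0.15.

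Psma8 had the largest differences of the 41. It encodes the testis form of an alpha subunit, which takes the place of Psma7 in the proteasomes of male germ cells. Its level was 2.34 and 2.40 with NT, 1.45 and 1.59 with Thoc2, and 1.23 and 1.16 with Thoc5 siRNA. All 4 THO siRNA arrays were below both NT arrays, and the Thoc5 arrays were below the Thoc2 arrays. The log2 difference was -0.85 ± 0.14 with Thoc2 siRNA (adjusted p = 0.219, limma) and -1.17 ± 0.14 with Thoc5 siRNA (adjusted p = 0.101), which put the mRNA at 55.6% and 44.5% of NT. The Thoc5 difference passed the threshold in 2 other limma fits: the adjusted p was 0.0378 over genes detected on all arrays and 0.0225 with trended, robust variances. Over the 20 settings its adjusted p ran from 0.0225 to 0.656. Leaving out each array in turn gave -0.92 to -0.77 and -1.20 to -1.13. Between arrays of 1 slide, the differences were -0.74 and -1.24. The array carries no second Psma8 probe to set beside these values.

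Psma7, the constitutive counterpart of Psma8, read 6.34 and 6.40 with NT, 6.23 and 6.66 with Thoc2, and 6.48 and 6.20 with Thoc5 siRNA. The 3 groups overlapped, with log2 differences of 0.08 ± 0.21 and -0.02 ± 0.21.

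Psma2, a constitutive alpha subunit, read 7.33 and 7.54 with NT, 6.95 and 7.18 with Thoc2, and 6.96 and 6.82 with Thoc5 siRNA. Both THO groups were below both NT arrays. The log2 difference was -0.37 ± 0.17 (adjusted p = 0.415, limma) and -0.54 ± 0.17 (adjusted p = 0.206, limma). It was below 0 in all 20 fitted settings with each siRNA, several of which, such as another variance model, cannot change it.

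Psma6, also an alpha subunit, had the widest spread within a group. Its level was 5.74 and 6.05 with NT, 4.84 and 5.58 with Thoc2, and 5.62 and 5.67 with Thoc5 siRNA. Every THO siRNA array was below NT, but Thoc2 replicate 1 stood far below replicate 2. The log2 difference was -0.69 ± 0.30 with Thoc2 siRNA and -0.31 without that array; it was -0.25 ± 0.30 with Thoc5 siRNA.

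Psma1, Psma3 and Psma5 are the other constitutive alpha subunits read on all arrays. Psma1 read 5.68 and 5.63 with NT, 5.66 and 5.56 with Thoc2, and 5.38 and 5.34 with Thoc5 siRNA. Psma3 read 4.63 and 4.77, 4.71 and 4.68, and 4.51 and 4.37 in the same order. For both, the Thoc5 arrays were below the other 4, with log2 differences of -0.29 ± 0.14 and -0.26 ± 0.15 from NT. Psma5, among the brightest of the 41, read 7.16 and 7.34 with NT, 7.13 and 7.20 with Thoc2, and 7.14 and 7.19 with Thoc5 siRNA. Its groups overlapped, with log2 differences of -0.09 ± 0.15 and -0.08 ± 0.15. Psma4 has no value on Thoc2 replicate 1, an outlier spot, so that its Thoc2 mean rests on 1 array; its log2 differences were -0.14 ± 0.20 and -0.16 ± 0.17.

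**Figure D2:**
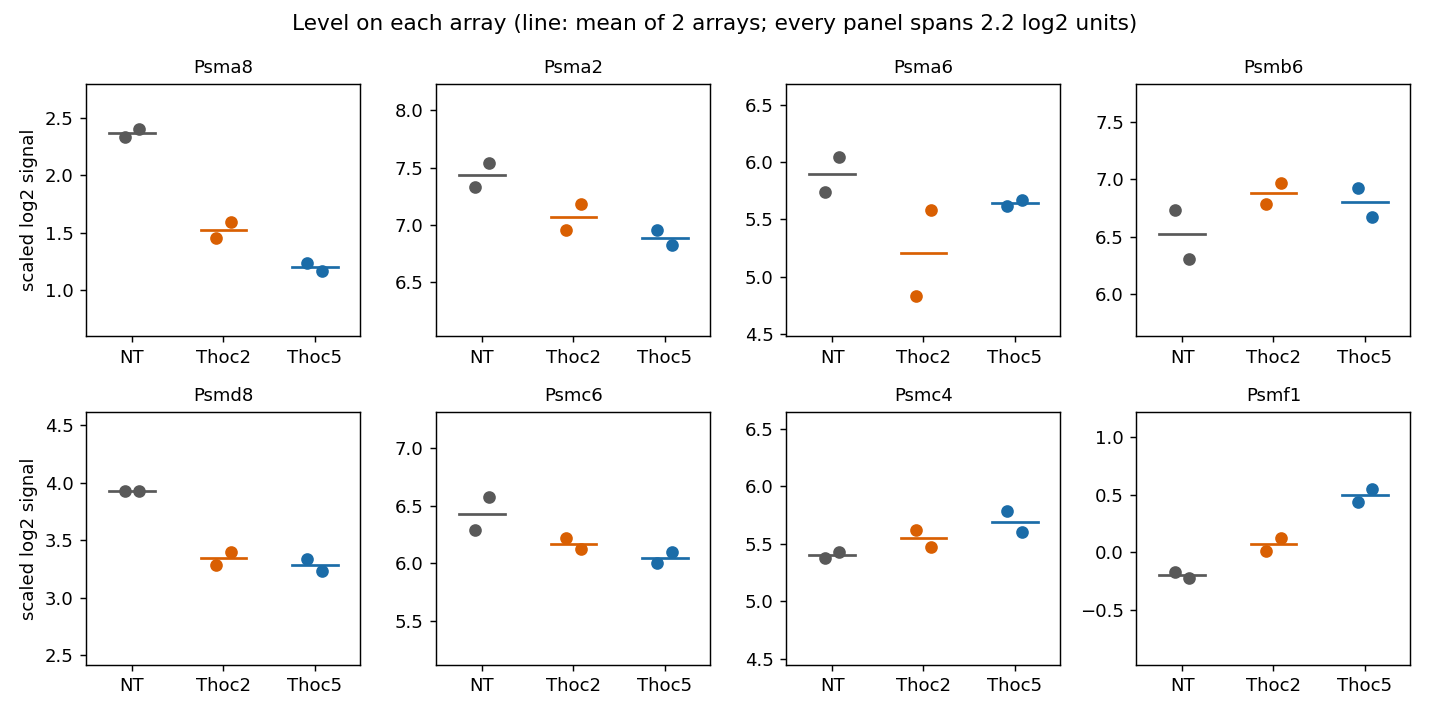
Scaled log2 signal of 8 genes on each array (points) with the group mean (lines), for NT, Thoc2 and Thoc5 siRNA; all panels span the same number of log2 units. The THO siRNA arrays lie below NT for Psma8, Psma2, Psma6, Psmd8 and Psmc6 and above NT for Psmc4 and Psmf1, the Thoc2 values of which turn below NT with median scaling (-0.14 and -0.017), and 1 Psma6 array stands apart.

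In the beta ring, which cuts the substrate, 4 of 7 genes lay below NT with Thoc2 siRNA and 5 of 7 with Thoc5 siRNA, and none reached an unadjusted p under 0.05 in limma with either. With normexp 7 and 6 of the 7 lay below NT, and with quantile normalization 4 and 5. The genes of the 3 protease sites had differences of either sign. Psmb6, the caspase-like site, read 6.73 and 6.31 with NT, 6.79 and 6.97 with Thoc2, and 6.93 and 6.67 with Thoc5 siRNA. The Thoc2 arrays were above both NT arrays and the Thoc5 arrays overlapped them, with log2 differences of 0.36 ± 0.22 and 0.28 ± 0.22. Psmb7, the trypsin-like site, read 4.28 and 4.44 with NT, 4.25 and 4.02 with Thoc2, and 4.16 and 4.22 with Thoc5 siRNA. Neither THO group overlapped NT, and both were below it, with log2 differences of -0.22 ± 0.16 and -0.17 ± 0.16. Psmb5, the chymotrypsin-like site, read 5.66 and 5.57 with NT, 5.73 and 5.65 with Thoc2, and 5.61 and 5.65 with Thoc5 siRNA. Its groups overlapped, with log2 differences of 0.08 ± 0.14 and 0.02 ± 0.14. Each of these differences was under 2 SE.

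Among the beta subunits without a protease site, Psmb2 had the largest differences. It read 2.56 and 2.73 with NT, 2.09 and 2.66 with Thoc2, and 2.32 and 2.07 with Thoc5 siRNA, so that 1 Thoc2 array lay among the NT values. Psmb1 read 5.25 and 5.16 with NT, 5.05 and 5.15 with Thoc2, and 4.97 and 5.10 with Thoc5 siRNA. The 4 THO siRNA arrays of Psmb1 were below NT, by little: its log2 differences were -0.11 ± 0.14 and -0.17 ± 0.14, and those of Psmb2 -0.27 ± 0.25 and -0.45 ± 0.25. Those of Psmb3 were 0.02 ± 0.20 and -0.17 ± 0.20, and those of Psmb4 -0.07 ± 0.16 and -0.29 ± 0.16.

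In the base of the regulatory particle, the ATPase ring differed among its own members. With Thoc5 siRNA 5 of 6 ATPase genes were above NT and Psmc6 was below, with a median log2 difference of 0.21; with Thoc2 siRNA 4 of 6 were above, with a median of 0.057. With normexp background correction these directions turned, with medians of -0.20 for Thoc2 siRNA and -0.14 for Thoc5 siRNA, and with median scaling the Thoc2 median was -0.23. None of the 6 reached an unadjusted p under 0.05 in limma with either siRNA.

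Psmc6 read 6.29 and 6.57 with NT, 6.22 and 6.12 with Thoc2, and 6.004 and 6.09 with Thoc5 siRNA. Neither THO group reached the NT arrays, and its log2 difference was below 0 in all 20 fitted settings, several of which cannot change it. It was -0.26 ± 0.17 (adjusted p = 0.517, limma) and -0.38 ± 0.17 (adjusted p = 0.307). A second, dimmer Psmc6 probe read 2.19 and 2.25 with NT, 1.41 and 1.68 with Thoc2, and 1.59 and 1.52 with Thoc5 siRNA. It too was below NT on all 4 arrays, with log2 differences of -0.67 ± 0.16 (unadjusted p = 0.0111) and -0.67 ± 0.16 (unadjusted p = 0.0116, limma).

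Psmc4 read 5.38 and 5.43 with NT, 5.62 and 5.47 with Thoc2, and 5.79 and 5.60 with Thoc5 siRNA. Both THO groups were above NT, with log2 differences of 0.14 ± 0.15 and 0.29 ± 0.15. Psmc2 read 5.74 and 5.78 with NT, 5.82 and 5.93 with Thoc2, and 5.89 and 5.86 with Thoc5 siRNA. Its 4 THO siRNA arrays were also above NT, and both log2 differences were 0.12 ± 0.14. Psmc1 and Psmc3 had log2 differences of 0.19 ± 0.15 and 0.23 ± 0.16 with Thoc5 siRNA, and of -0.0048 ± 0.15 and 0.06 ± 0.16 with Thoc2 siRNA.

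The probes of Psmc5 disagreed in size. The brightest read 4.36 and 4.77 with NT, 4.87 and 4.36 with Thoc2, and 4.77 and 4.87 with Thoc5 siRNA. Its groups overlapped, with log2 differences of 0.05 ± 0.26 and 0.25 ± 0.26. The other probe read 2.74 and 2.26 with NT, 3.61 and 2.92 with Thoc2, and 3.76 and 3.99 with Thoc5 siRNA. All 4 THO siRNA arrays were above NT on that probe, with log2 differences of 0.76 ± 0.32 (unadjusted p = 0.0678) and 1.37 ± 0.32 (unadjusted p = 0.0097, limma). Which of the 2 probes follows Psmc5 mRNA was not tested.

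The base scaffold subunits and ubiquitin receptor lay near NT. Psmd1, a scaffold subunit, read 4.08 and 4.03 with NT, 4.57 and 3.90 with Thoc2, and 3.96 and 4.26 with Thoc5 siRNA. Thoc2 replicate 1 was the high array, and the log2 difference of 0.18 ± 0.28 with Thoc2 siRNA was -0.16 without it. Psmd2, the other scaffold subunit, had log2 differences of -0.05 ± 0.19 and 0.07 ± 0.19. Psmd4, which binds ubiquitin chains, had -0.02 ± 0.15 and -0.04 ± 0.15.

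In the lid, 1 of 8 genes stood apart. Psmd8, a lid subunit that joins late in assembly, read 3.93 and 3.93 with NT, 3.29 and 3.40 with Thoc2, and 3.33 and 3.23 with Thoc5 siRNA. The NT arrays were alike and all 4 THO siRNA arrays were below them, with no order between the siRNAs. The log2 difference was -0.59 ± 0.14 with Thoc2 siRNA (adjusted p = 0.240, limma) and -0.65 ± 0.14 with Thoc5 siRNA (adjusted p = 0.130), which put the mRNA at 66.6% and 63.9% of NT. In the limma fit with trended variances the Thoc5 difference had an adjusted p of 0.0415, and over all settings it ran from 0.0415 to 0.656. Within the shared slide the differences were -0.53 and -0.70. The array carries 1 Psmd8 probe, so no second probe bears on it.

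The other 7 lid genes had log2 differences between -0.11 and 0.10 with Thoc2 siRNA and between -0.19 and 0.04 with Thoc5 siRNA. Among them are Psmd14, the deubiquitinase of the lid, at -0.08 ± 0.14 and -0.09 ± 0.14, and Psmd11, which in human embryonic stem cells is linked to their high proteasome activity, at -0.08 ± 0.14 and -0.06 ± 0.14. Psmd3, the brightest of the 41, read 7.44 and 7.52 with NT, 7.37 and 7.55 with Thoc2, and 7.46 and 7.35 with Thoc5 siRNA. Its groups overlapped. Psmd6 read 4.88 and 4.67 with NT, 4.92 and 4.83 with Thoc2, and 4.65 and 4.52 with Thoc5 siRNA. Its Thoc5 arrays were below the other 4.

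Psmd5, Psmd9 and Psmd10 are chaperones that help to assemble the base. Psmd5 read 3.64 and 3.62 with NT, 3.64 and 3.36 with Thoc2, and 3.65 and 3.82 with Thoc5 siRNA. Psmd9, among the dimmest of the 41, read 1.55 and 1.48 with NT, 1.47 and 1.77 with Thoc2, and 1.48 and 1.55 with Thoc5 siRNA. Neither showed a difference beyond its error, at -0.13 ± 0.17 and 0.10 ± 0.17 for Psmd5 and 0.11 ± 0.17 and -0.00051 ± 0.17 for Psmd9. Psmd10 had log2 differences of 0.03 ± 0.22 and 0.17 ± 0.22.

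**Figure D3:**
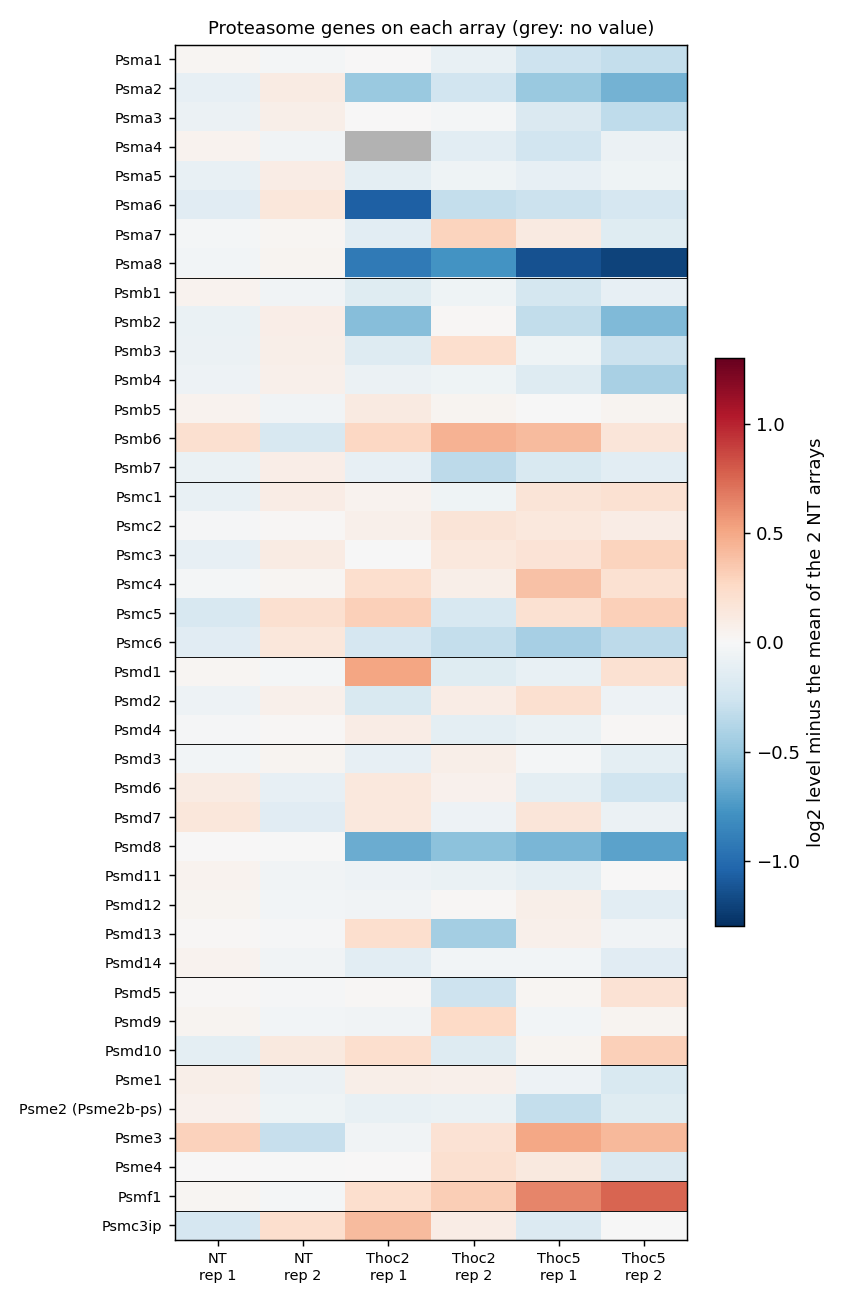
Level of each of the 41 genes on each array minus its mean over the 2 NT arrays (log2, colour scale), with lines between roles and grey for the missing Psma4 value. Psma8 and Psmd8 are blue on all 4 THO siRNA arrays, Psmf1 is red with Thoc5 siRNA, and most other cells are pale.

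Of the genes for alternative caps, Psme3 had the largest difference. It encodes a nuclear activator that acts without ubiquitin. Psme3 read 1.79 and 1.18 with NT, 1.44 and 1.67 with Thoc2, and 1.98 and 1.90 with Thoc5 siRNA. The Thoc5 arrays were above the other 4, but the NT arrays lay far apart, and the log2 difference was 0.46 ± 0.26 with Thoc5 siRNA (adjusted p = 0.407, limma) and 0.07 ± 0.26 with Thoc2 siRNA. Psme1, a subunit of the interferon-inducible cap, read 3.62 and 3.46 with NT, 3.62 and 3.61 with Thoc2, and 3.48 and 3.34 with Thoc5 siRNA. Its Thoc5 arrays overlapped NT. Its partner is on the array under the name of a pseudogene, Psme2b-ps, with an accession that RefSeq gives to Psme2, so signal of the 2 cannot be told apart. That probe read 4.88 and 4.77 with NT, 4.73 and 4.74 with Thoc2, and 4.52 and 4.67 with Thoc5 siRNA. Both THO groups were below NT, with log2 differences of -0.09 ± 0.14 and -0.23 ± 0.14. Psme4, another nuclear activator, had log2 differences of 0.11 ± 0.18 and -0.03 ± 0.18.

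Psmf1, which binds the core and inhibits it in vitro, was the dimmest of the 41. It read -0.17 and -0.23 with NT, 0.01 and 0.12 with Thoc2, and 0.43 and 0.55 with Thoc5 siRNA. The 3 groups did not overlap, with NT lowest and Thoc5 highest. The log2 difference was 0.27 ± 0.14 with Thoc2 siRNA (adjusted p = 0.450, limma) and 0.69 ± 0.14 with Thoc5 siRNA (adjusted p = 0.126), the latter 1.62-fold. The Thoc5 difference was above 0 in all 20 fitted settings (0.44 to 0.78), several of which cannot change it. With median scaling the Thoc2 difference was -0.017. Its 2 dimmer probes had log2 differences of 0.26 ± 0.16 and 0.58 ± 0.39 with Thoc5 siRNA, both above 0 and neither past an unadjusted p of 0.05 in limma.

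Psmc3ip is among the 41 by the pattern of its name alone. It encodes a partner of a base ATPase that acts in meiotic recombination and is no proteasome subunit. It read 2.45 and 2.88 with NT, 3.08 and 2.77 with Thoc2, and 2.49 and 2.67 with Thoc5 siRNA. Its groups overlapped with NT, at log2 differences of 0.26 ± 0.23 and -0.09 ± 0.23.

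Between the particles, the core median was below the regulatory median with each siRNA over all arrays, but not with Thoc2 siRNA between the 2 arrays of 1 slide. The median log2 difference of the 15 core genes was -0.087 with Thoc2 siRNA and -0.17 with Thoc5 siRNA; that of the 26 regulatory genes was 0.031 and 0.0045. Core genes below NT numbered 11 of 15 (73.3%) and 13 of 15 (86.7%), regulatory genes 12 of 26 (46.2%) and 13 of 26 (50%), and over all genes 44.3% and 56.8% were below. Another scaling moves all of these: with median scaling the median of all genes with Thoc2 siRNA was -0.22 in place of 0.062, and with normexp it was 0.29. Relative to all genes, the core median was -0.15 with Thoc2 siRNA and -0.084 with Thoc5 siRNA, and over the settings it ran from -0.74 to 0.0079 and from -0.82 to -0.032. The core median minus the regulatory median does not depend on a shift of the whole array. Several of the 20 fitted settings, the main fit among them, leave this gap as it is. It was -0.12 and -0.17, and below 0 in the 20 fitted settings (-0.16 to -0.048 and -0.28 to -0.15). Between the arrays of 1 slide it was 0.018 with Thoc2 siRNA, from medians of -0.012 and -0.030, so its sign turned; with Thoc5 siRNA it was -0.31.

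The same gap array by array was small. Taken from each gene's NT mean, the core median minus the regulatory median was -0.071 and 0.071 on the NT arrays, -0.16 and -0.048 on the Thoc2 arrays, and -0.23 and -0.22 on the Thoc5 arrays. The Thoc5 arrays were below both NT arrays, while 1 of the Thoc2 arrays lay between them. Without Psma8 the core median was -0.079 and -0.17, and without Psmc3ip and Psme2b-ps the regulatory median with Thoc5 siRNA was 0.026. These are descriptions of lists whose genes were read on the same arrays, and no test was made of them.

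**Figure D4:**
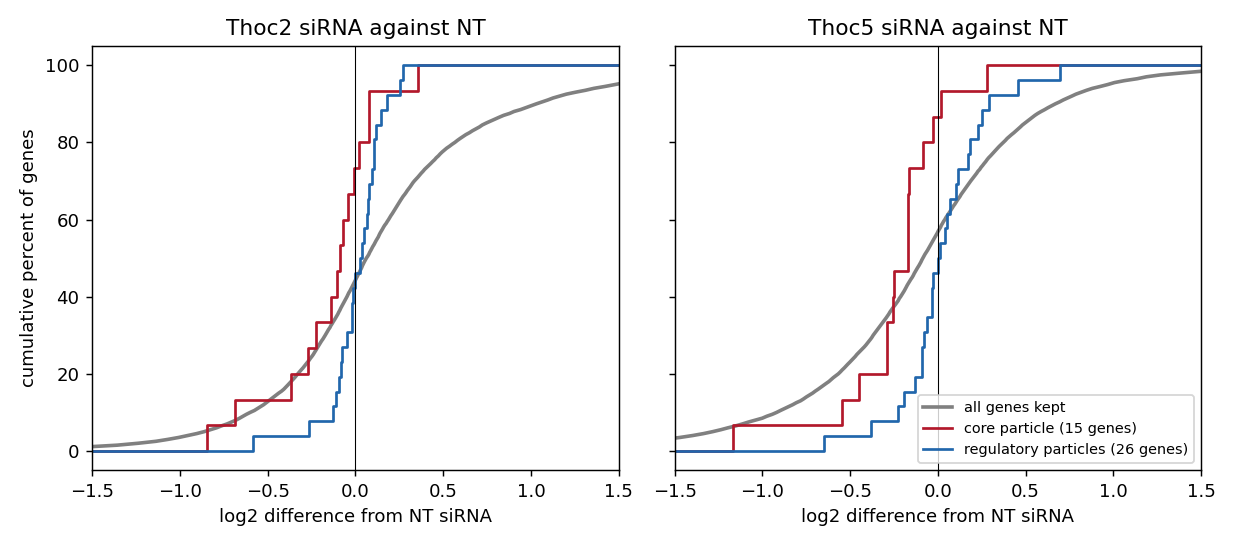
Cumulative percent of genes by log2 difference from NT siRNA, for all genes kept (grey), core genes (red) and regulatory genes (blue), with Thoc2 siRNA at left and Thoc5 siRNA at right. Both proteasome curves are steeper than that of all genes, and the core curve lies to the left of the regulatory curve over most of its length; between the arrays of 1 slide, not plotted, the medians had the opposite order with Thoc2 siRNA.

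Of the 40 genes with values on all arrays, 8 had all 4 THO siRNA arrays below both NT arrays and 3 had all 4 above. The shares are 20% and 7.5%, against 16.3% and 14.3% over all genes. Singly, 9 of the 40 did not overlap NT in the lower direction with Thoc2 siRNA (20.9% of all genes) and 5 in the higher direction (26%). With Thoc5 siRNA 14 of the 41 did so in the lower (31.1%) and 7 in the higher direction (21.7%). Over both particles together these counts are near or below the background, but the particles differed. With Thoc5 siRNA 10 of the 15 core genes were lower without overlap, a share above the 31.1% of all genes, and 0 were higher. Of the 26 regulatory genes 4 were lower and 7 higher. With Thoc2 siRNA 5 core genes were lower and 1 higher, and 4 regulatory genes went each way. This split was not tested. The 8 genes below NT with both siRNAs are Psma2, Psma6, Psma8, Psmb1, Psmb7, Psmc6, Psmd8 and Psme2b-ps, and the 3 above are Psmc2, Psmc4 and Psmf1.

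Set directly against each other, the 2 siRNAs gave no gene at an adjusted p under 0.05 (limma, 0% of genes). At an unadjusted p under 0.05, Psmf1 was the gene higher with Thoc5 than with Thoc2 siRNA (1 of 41, 2.19% of all genes) and 0 were lower (6.94%; 9.13% either way). Its difference was 0.43 ± 0.14 (adjusted p = 0.517, limma), above 0 in the 20 fitted settings but at an unadjusted p under 0.05 in 9 of them. The call was lost with the replicate block, with only the 2 groups fitted, by normexp and with the mean of all kept probes. It was also lost with no filter on dim probes and on leaving out any 1 array. Psma8 had -0.32 ± 0.14 and was below 0 in 19 of 20 settings, turning to 0.051 with median scaling. In this comparison 9 of the 40 genes with all values were lower without overlap (32.6% of all genes) and 6 were higher (13.2%).

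More than 1 probe was on the array for 17 of the 41 genes. Of their 22 dimmer probes 20 were kept, and the sign of the difference was that of the brightest probe in 15 with Thoc2 siRNA and in 14 with Thoc5 siRNA. Most of these differences were near 0, where a sign carries little. Dimmer probes past an unadjusted p of 0.05 in limma were those of Psmc6 with both siRNAs and Psmc5 with Thoc5 siRNA, described above, and of Psmc3ip with Thoc2 siRNA (0.50 ± 0.15, unadjusted p = 0.0222).

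**Figure D5:**
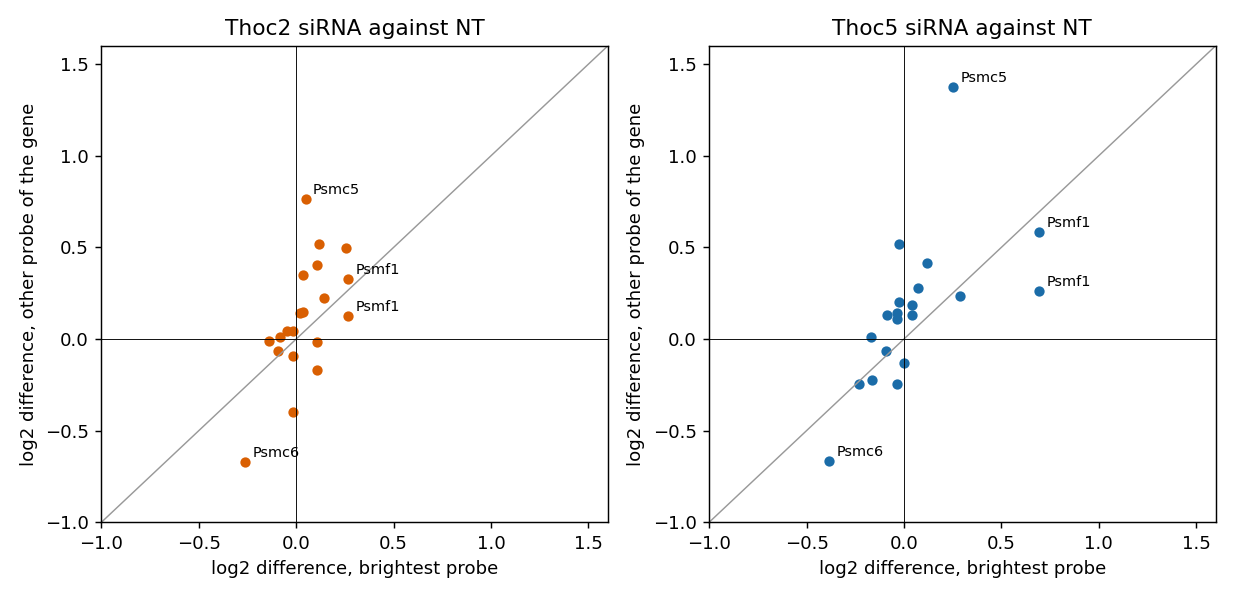
Log2 difference from NT siRNA of each dimmer probe against that of the brightest probe of its gene, for 20 kept probes, with the line of equality. Psmc6 and Psmf1 have the same sign on all probes, and the Psmc5 point lies far above the line.

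Genes that work with the proteasome had medians near those of its regulatory genes. Of 29 such genes, 0 passed an adjusted p of 0.05 (limma), and their median log2 difference was 0.040 with Thoc2 siRNA and -0.0051 with Thoc5 siRNA. At an unadjusted p under 0.05, 1 was lower with Thoc2 siRNA (Ubqln2), and with Thoc5 siRNA 2 were lower (Ubqln2 and Ubqln1) and 1 higher (Zfand5). Over all genes 6.48% were lower with Thoc2 siRNA, and 12.1% lower and 7.41% higher with Thoc5 siRNA, so these counts are at or below the background. Ubqln2, a shuttle that carries ubiquitinated proteins to the proteasome, read -0.30 and 0.01 with NT, -1.09 and -1.19 with Thoc2, and -1.17 and -1.29 with Thoc5 siRNA. All 4 THO siRNA arrays were below NT, with log2 differences of -0.995 ± 0.17 (adjusted p = 0.222, limma) and -1.08 ± 0.17 (adjusted p = 0.107). Nfe2l1, the factor that raises subunit genes, had 0.18 ± 0.17 and 0.17 ± 0.17, and Pomp, the core maturation factor, -0.07 ± 0.14 and -0.27 ± 0.14.

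The core assembly chaperones Psmg1 and Psmg2, which the files name otherwise, had log2 differences of -0.15 ± 0.17 and -0.05 ± 0.15 with Thoc2 siRNA and of -0.47 ± 0.17 and -0.47 ± 0.15 with Thoc5 siRNA (unadjusted p = 0.0428 and 0.0296; adjusted p = 0.240 and 0.207, limma). Psmg3, another, had 0.31 ± 0.23 and 0.25 ± 0.23. The interferon-induced subunit Psmb9, which replaces Psmb6 in immunoproteasomes, had -1.01 ± 0.20 (adjusted p = 0.226) and -1.08 ± 0.20 (adjusted p = 0.116, limma), and Psmb10, which replaces Psmb7, had -0.36 ± 0.16 and -0.41 ± 0.16. Psmb8, which replaces Psmb5, was detected on 5 of the 6 arrays and had -1.51 ± 0.85 and -1.76 ± 0.85.

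Promoters were searched because subunit genes are known to share response elements. RefSeq promoter windows (GRCm38.p6, 250 bases before to 50 after each start) matched 34 of the 41 genes, with 37 windows. The antioxidant response element core TGACNNNGC, to which Nfe2l1 binds, was found on either strand in 6 of the 34 (17.6%), against 14% of 27025 genes. CCAAT was found in 13 (38.2%, against 41.1%), and GCGCATGC, the letters of the nuclear respiratory factor site, in Psma2 and Psmc5 (5.88%, against 3.05%). In these genes no match of one motif overlapped a match of another, and a match is a description and not a shown site. The share with a response element core is near that over all genes. Of the 6 response element cores 5 lie wholly before the start, and all 5 are printed 5′ to 3′ on the gene's strand with the motif in capitals.
Psmb5 (chr14:54618014-54618062, minus strand): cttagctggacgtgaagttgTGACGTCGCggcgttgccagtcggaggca
Psmb6 (chr11:70525328-70525356, plus strand): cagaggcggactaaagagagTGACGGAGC
Psmc6 (chr14:45329577-45329625, plus strand): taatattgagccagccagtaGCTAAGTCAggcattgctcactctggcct
Psmd9 (chr5:123228139-123228187, plus strand): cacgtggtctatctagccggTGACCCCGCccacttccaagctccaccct
Psmd12 (chr11:107479278-107479309, plus strand): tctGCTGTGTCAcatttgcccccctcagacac

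In Psmc6 and Psmd12 the motif is on the opposite strand, so the capitals show its reverse complement. The genes with these stretches had differences of either sign: with Thoc5 siRNA the log2 differences were 0.02 for Psmb5, 0.28 for Psmb6, -0.38 for Psmc6, -0.00051 for Psmd9 and -0.03 for Psmd12. With Thoc2 siRNA they were 0.08, 0.36, -0.26, 0.11 and -0.02 in the same order.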

How the data were processed

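Per the file headers, Agilent Feature Extraction 9.5.3.1 gave each spot an intensity, the processed signal used here, which is background-subtracted; the submitters' processing notes give 11.0. The series table the authors deposited is quantile-normalized and on a log2 scale. On each array it ranked spots as the processed signal did (Spearman 1), with the same median of 5.82 on every array, and its offset is not stated. As a setting it is therefore not independent of the quantile normalization made here.

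Control spots (leaving 43379) and outlier features were left out, spots of the 41174 probes were averaged as log2, and each array's 75th percentile was subtracted. A gene was its brightest probe and was kept if well above background (at least 0.5 of its spots) on every array of at least 1 group, giving 19336 genes. Names came through accessions for 22951 probes, and 8437 kept the name in the files. Probe coordinates are in mm7.

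Limma 3.58.1 in R 4.3.3 (lmFit, eBayes) was fitted to all 6 arrays, with 3 residual and 1.49 prior degrees of freedom, and p-values are two-sided with Benjamini-Hochberg adjustment over all genes at 0.05. With 2 arrays against 2, the smallest p of an exact permutation test is 0.333. The number of arrays limits the precision. The fit was also run on simulated data with independent noise on each array. These hold no slide or scaling effect, so that run checks the code and not how well the model suits these arrays. Genes given array by array are those with the 3 largest differences each way per particle and comparison, the 2 brightest and 2 dimmest, and those not overlapping NT the same way with both siRNAs; other genes are described by role, and Psmc5 was added after its probes were seen to disagree. The members and lists were chosen with earlier results of these data known. Same-numbered arrays correlated at -0.20 (NT and Thoc2), 0.14 (NT and Thoc5) and 0.22 (Thoc2 and Thoc5) in their deviations, so the numbers were not taken as pairs. Alternatives changed normalization, scaling, background, source, filter, variance model, slide, pairing, arrays, probe choice and outlier spots.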

Additional observations from a re-analysis of the deposited data

How the results depend on the processing

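With 2 arrays a group, most single differences here lie within their error, and several signs turned. The count of all genes at an adjusted p under 0.05, 0 in each comparison by limma (2804, 3764, 1766 and 3706 at an unadjusted p under 0.05 for Thoc2, Thoc5, Thoc5 against Thoc2 and both), was 512 with Thoc5 siRNA and 440 for the mean of both siRNAs when only genes well above background on all arrays were tested, and 4 (Thoc2), 661 (Thoc5) and 638 (both) with trend and robust variances; leaving out any 1 array gave 0. The causes of the changes below were not tested. Replicate number as a block left 0 genes called and the medians at -0.087 and -0.17 (core) and 0.031 and 0.0045 (regulatory); the crossed pairing, added after the data were seen, also gave 0, with 1800 genes at an unadjusted p under 0.05 for Thoc2 siRNA.

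Values of Thoc2 siRNA come first and those of Thoc5 siRNA second. The core median was -0.065 with Thoc5 siRNA by quantile normalization and -0.092 by cyclic loess, -0.37 and -0.080 by median scaling, -0.45 and -0.57 by normexp, -0.0022 and -0.070 in the deposited table, and -0.012 and -0.29 within the shared slide. The regulatory median was 0.071 and 0.088 by quantile normalization, 0.050 and 0.075 by cyclic loess, -0.25 and 0.093 by median scaling, -0.29 and -0.29 by normexp, 0.068 and 0.078 in the deposited table, 0.016 (Thoc2) with slide a random block, 0.020 and 0.044 by the mean of all kept probes, and -0.030 and 0.023 within the shared slide, where the core median is above the regulatory median with Thoc2 siRNA. Without Psmc3ip and Psme2b-ps it was 0.026 with Thoc5 siRNA. Thoc5 against Thoc2, the core median was 0.27 by median scaling and -0.18 with outlier spots kept, and the regulatory median 0.070 by quantile normalization, 0.056 by cyclic loess, 0.37 by median scaling, 0.044 by normexp, 0.054 in the deposited table and 0.019 with all kept probes. Leaving out 1 array in turn, the core median ran from -0.13 to -0.057, from -0.25 to -0.17 and, Thoc5 against Thoc2, from -0.24 to -0.038; the regulatory median ran from -0.035 to 0.031, from -0.010 to 0.031 and from -0.016 to 0.019.

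Signs of single genes turned by median scaling with Thoc2 siRNA for Psma7 (-0.21), Psmb5 (-0.21), Psmc2 (-0.17), Psmc3ip (-0.029), Psmc4 (-0.14), Psmd1 (-0.11) and Psmf1 (-0.017), and Thoc5 against Thoc2 for Psma1 (0.12), Psma3 (0.12), Psma8 (0.051), Psmc3ip (0.030), Psmd6 (0.086) and Psme1 (0.17). By normexp they turned with Thoc2 siRNA for Psma7 (-0.42), Psmb5 (-0.33), Psmb6 (-0.026), Psmc2 (-0.31), Psmc4 (-0.014) and Psmd1 (-0.048), with Thoc5 siRNA for Psmb5 (-0.37) and Psmc2 (-0.29), and Thoc5 against Thoc2 for Psma1 (0.029), Psma5 (-0.15) and Psmb7 (-0.079). Psma5, Thoc5 against Thoc2, was -0.013 in the deposited table and -0.025 with slide as a random block. Within the shared slide Psmb5 was -0.012 and Psmd1 -0.19 with Thoc2 siRNA. Leaving out 1 array in turn gave -0.14 to 0.29 for Psma7, -0.16 to 0.52 for Psmd1 and -0.27 to 0.014 for Psmd5 with Thoc2 siRNA, -0.030 to 0.065 for Psmb5 with Thoc5 siRNA, and -0.032 to 0.038 for Psma5 and -0.062 to 0.17 for Psmb7 Thoc5 against Thoc2. Psma8, Psmd8, Psma2, Psma6 and Psmc6 kept their sign with both siRNAs in all 20 fitted settings and within the shared slide. Several of the 20, the main fit and other variance models among them, cannot change a gene's difference, so a sign kept there carries nothing.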
